A study of Homo sapiens with 4 samples.

Results

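Aminoacyl-tRNA synthetases were followed in the human neuroblastoma line SH-SY5Y, a culture model of sympathetic neuroblasts, after transfection of a small interfering RNA (siRNA) against LSD1, the histone lysine demethylase encoded by KDM1A, or of a control siRNA. Each group, called siControl and siLSD1, had 2 arrays of total RNA, and the submitters' design text describes separate transfections within a group. Both groups were of the same line and were transfected, and the sources used here give neither the siRNA sequences nor the time from transfection to harvest. Members were found by symbol: of 36 listed synthetase genes, 33 had at least 1 probe set annotated to that gene alone, with 69 such probe sets out of 54675 on the array. MARS1, QARS1 and TARS2 were represented by probe sets that also carried a second symbol, so no value is given for them. Of the 33 genes, 16 encode enzymes of the cytosol, 2 (GARS1 and KARS1) encode both the cytosolic and the mitochondrial form, and 15 encode enzymes of the mitochondrion.

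Each of these enzymes joins an amino acid to its matching tRNA and so supplies the ribosome. Cytosolic and mitochondrial translation use separate sets, all encoded in the nucleus, and several cytosolic synthetases sit together in a multi-enzyme complex held by non-enzymatic scaffold proteins. Many cytosolic synthetase genes are known targets of ATF4, the transcription factor of the amino acid response.

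Levels are log2 signals after quantile normalization, the brightest probe set (by its mean over all arrays) stands for the gene, and differences are siLSD1 minus siControl. KDM1A, the target, read 9.79 and 9.78 in siControl and 8.40 and 8.54 in siLSD1 cells, a log2 fold change of -1.32 (95% interval -1.69 to -0.95; limma adjusted p = 0.39 over all genes). Of 10 neuroblastoma markers with a value, 9 lay above the filter level of 4.12, among them GATA3, ISL1, DBH and CHGA, whereas TH lay at a mean of 0.83. None of the 5 blood and 4 glial markers with a probe set of their own reached that level, and 8 of 9 fibroblast markers did, led by PDGFRA (9.44), COL3A1 (8.76) and LUM (7.42). The summed linear signal of these 8 was 1784 and 1298 in siControl and 1632 and 1984 in siLSD1 cells, and its part in the synthetase values was not tested. The array siControl replicate 1 stood apart: 2.57% of the 11865 genes tested read at least 1 log2 unit lower there than on all 3 other arrays, against 0.22% to 0.38% for each of the others. The larger differences that rest on it are given with and without it below, and every synthetase gene is plotted both ways. Another array, siLSD1 replicate 2, differed in the control probe sets for transcript ends. The 3′ minus 5′ log2 difference for actin was 1.16 there and 0.54 to 0.71 on the other arrays. For GAPDH it was 0.30 there and -0.03 to 0.0014 on the others. The part of this in the synthetase values was not tested.

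Transcripts of the synthetases changed little, and none could be called. All 33 genes lay above the filter. With 4 arrays, 0 of the 33 passed an adjusted p of 0.05 in limma (smallest adjusted p = 0.9996), where the background over all genes tested was 0%, and 1 of them, GARS1, had an unadjusted p under 0.05 and was higher, against 2.29% of all genes that were higher, and 3.45% in either direction, at that p. The mean was higher in siLSD1 cells for 16 genes and lower for 17. The median absolute log2 fold change was 0.11 over the 33 genes and 0.17 over all genes tested, which were not matched to them for signal. The groups did not overlap for 4 synthetase genes that were higher and 5 that were lower after LSD1 siRNA, or 9 of 33 together, near the background of 31.7% of all genes (16.6% higher and 15.1% lower). In bulk RNA, a change in the cells' makeup and a change in RNA per cell cannot be told apart.

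The intervals bounded most changes. For 28 of the 33 genes (84.8%) the 95% interval of the fold change lay inside a 2-fold change in either direction, and for 18 (54.5%) inside a 1.5-fold change, compared with 71.9% and 26.1% of all genes tested. The 5 genes with wider intervals were RARS1, PARS2, CARS2, WARS2 and YARS2. The fit let the variance follow the signal, and KARS1, the brightest of the 33, had the narrowest interval. The comparison with all genes was not matched for signal, so it does not show that the family was more stable than other genes. Without siControl replicate 1, 32 of the 33 lay inside 2-fold, FARSA being the exception.

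**Figure D1:**
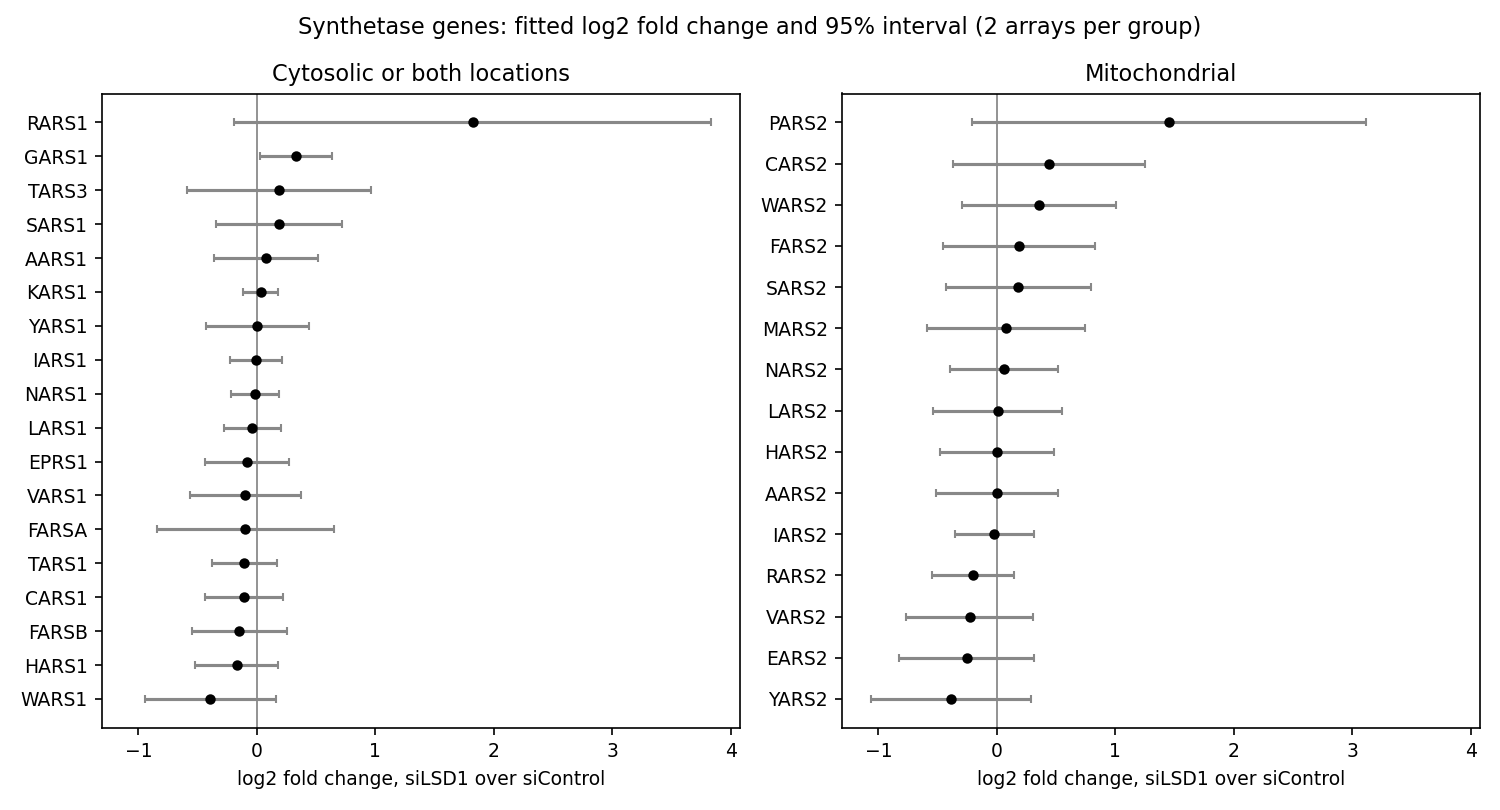
Fitted log2 fold change (x axis, siLSD1 over siControl) of each synthetase gene (y axis), with its 95% interval as a bar, for enzymes of the cytosol or of both locations (left) and of the mitochondrion (right). Most points lie within 0.4 of 0, and RARS1 (1.82) and PARS2 (1.45) stand to the right with the widest intervals.

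The medians of cytosolic and mitochondrial enzymes both lay close to 0 in the main scaling. Among the 18 genes for the cytosol or both locations, 7 had a higher and 11 a lower mean, and the median difference was -0.03 on the log2 scale. The 16 for the cytosol alone had 5 higher and 11 lower means, with a median of -0.06. GARS1 (0.33) and KARS1 (0.03), of both locations, were higher. Of the 15 mitochondrial ones, 9 were higher and 6 lower, and their median was 0.0063. The median over all 11865 genes was 0.0068, with 51.3% higher. These splits depended on scaling: median centring of the arrays moved the median of all genes by 0.17, to 0.18, and gave 27 of 33 synthetase genes a higher mean, 16 of 18 for the cytosol or both locations and 11 of 15 for the mitochondrion. Relative to the median of all genes, 13 of the 33 were higher in the main scaling and 16 under median centring. The median SD of a gene between the siControl arrays was 0.15 for the cytosolic set and 0.29 for the mitochondrial set. The sets were not matched for signal, so this does not show a trait of either compartment.

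Promoter sequences set some cytosolic genes apart by their letters. RefSeq promoter windows (GRCh38.p14), from 250 bases before to 50 after the start site, were found for 30 of the 36 genes, with 39 windows. A synthetase gene was counted if any of its windows held a motif, while the background counted single windows. The shares therefore differ in unit, and genes with several windows had more room for a match. The motif TGATGCAA, read on both strands, is a core of the composite element through which ATF4 and C/EBP proteins act. It occurred in the windows of 6 of 16 genes for the cytosol or both locations (AARS1, CARS1, IARS1, MARS1, NARS1 and TARS1), in 0 of 14 mitochondrial genes and in 0.866% of 35116 windows of all genes. With 1 free letter (TGATGNAA, which includes the former) GARS1 and the mitochondrial YARS2 were added, and 3.62% of all windows held it. The stretches below are shown because they hold the matches to either form of the motif. They are written along the gene's strand with the match in capitals, which is the reverse complement of the motif except in NARS1 and YARS2.
AARS1: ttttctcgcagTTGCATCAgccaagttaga
CARS1: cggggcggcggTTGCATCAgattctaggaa
IARS1: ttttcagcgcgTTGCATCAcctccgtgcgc
MARS1: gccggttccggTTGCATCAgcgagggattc
NARS1: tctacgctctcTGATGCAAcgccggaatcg
TARS1: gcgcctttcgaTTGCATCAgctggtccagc
GARS1: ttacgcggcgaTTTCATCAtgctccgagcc
YARS2: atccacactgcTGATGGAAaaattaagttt
The AARS1 stretch lies at chr16:70289675-70289704 (minus strand), that of CARS1 at chr11:3057407-3057436 (minus), IARS1 at chr9:92293692-92293721 (minus), MARS1 at chr12:57488053-57488082 (plus), NARS1 at chr18:57621804-57621833 (minus), TARS1 at chr5:33440956-33440985 (plus), GARS1 at chr7:30594834-30594863 (plus) and YARS2 at chr12:32756076-32756105 (minus). The match began 197 bases before the start site in YARS2, 187 in AARS1, 33 in GARS1, 13 in IARS1, 4 in MARS1 and 2 in CARS1, and 14 bases after it in NARS1 and 2 after it in TARS1.

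Measured by the brightest probe set of each, the genes with the exact motif differed by little. Their log2 fold changes were 0.08 for AARS1, -0.11 for CARS1, -0.0094 for IARS1, -0.01 for NARS1 and -0.11 for TARS1, and MARS1 had no value. The genes added by the free letter were at 0.33 (GARS1) and -0.39 (YARS2). The interval of each of the 5 measured genes with the exact motif lay inside a 1.5-fold change, again by the brightest probe set. Of the other CARS1 probe sets above the filter, 240983_s_at was at -0.85 and 202402_s_at at 0.28. A match is a description of the letters and not a site. Other motifs searched on both strands were CCGGAAG (ETS factors; 16 of 30 genes, 10.3% of all windows), GGGCGG (SP1; 23 genes, 45%), CCAAT (16 genes, 34.6%), CACGTG (E-box; 4 genes, 7.26%) and TGACGTCA (CRE; 0 genes, 1.85%).

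By their brightest probe sets, the 5 listed synthetases of the multi-enzyme complex with a value were nearly level, apart from 1 value of RARS1 on 1 array. MARS1 and QARS1, also of the complex, had no value. IARS1, which charges isoleucine tRNA, read 10.69 and 10.67 in siControl and 10.65 and 10.69 in siLSD1 cells, and the interval of its log2 fold change ran from -0.23 to 0.21. LARS1, for leucine, read 10.47, 10.45, 10.47 and 10.38 in the same order (-0.04, interval -0.28 to 0.21). KARS1, for lysine, read 11.94, 11.84, 11.90 and 11.95, and its interval of -0.12 to 0.18 was the narrowest of the 33. Its other probe set, 200079_s_at, was at -0.15, with groups that did not overlap. EPRS1, whose product charges both glutamate and proline tRNA, read 9.42, 9.34, 9.37 and 9.22 (-0.08). On the brightest probe sets, the groups of these 4 genes overlapped. AIMP1, a scaffold of the complex, read 9.07, 8.97, 9.16 and 8.77 (-0.05), and the scaffolds AIMP2 and EEF1E1 had no probe set of their own.

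RARS1, the arginine enzyme of the complex, gave the largest difference of the family. Its only probe set read 7.30 and 10.82 in siControl and 10.88 and 10.88 in siLSD1 cells, or 9.06 ± 2.49 and 10.88 ± 0.0055 (SD, n = 2). The groups did not overlap, but 3 of the 4 arrays read between 10.82 and 10.88, and the low value was that of siControl replicate 1. The fitted difference was 3.53-fold (log2 1.82, interval -0.19 to 3.83; limma unadjusted p = 0.071, adjusted p = 0.9996). Without siControl replicate 1 it was 0.06, with an interval from -0.16 to 0.28. Without siControl replicate 2 it was 3.58, and RARS1 was then called (adjusted p = 0.0028 in limma, with the lone control array assumed to vary like the others). In that fit 0.7% of all genes tested were called, against 0% with all arrays.

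**Figure D2:**
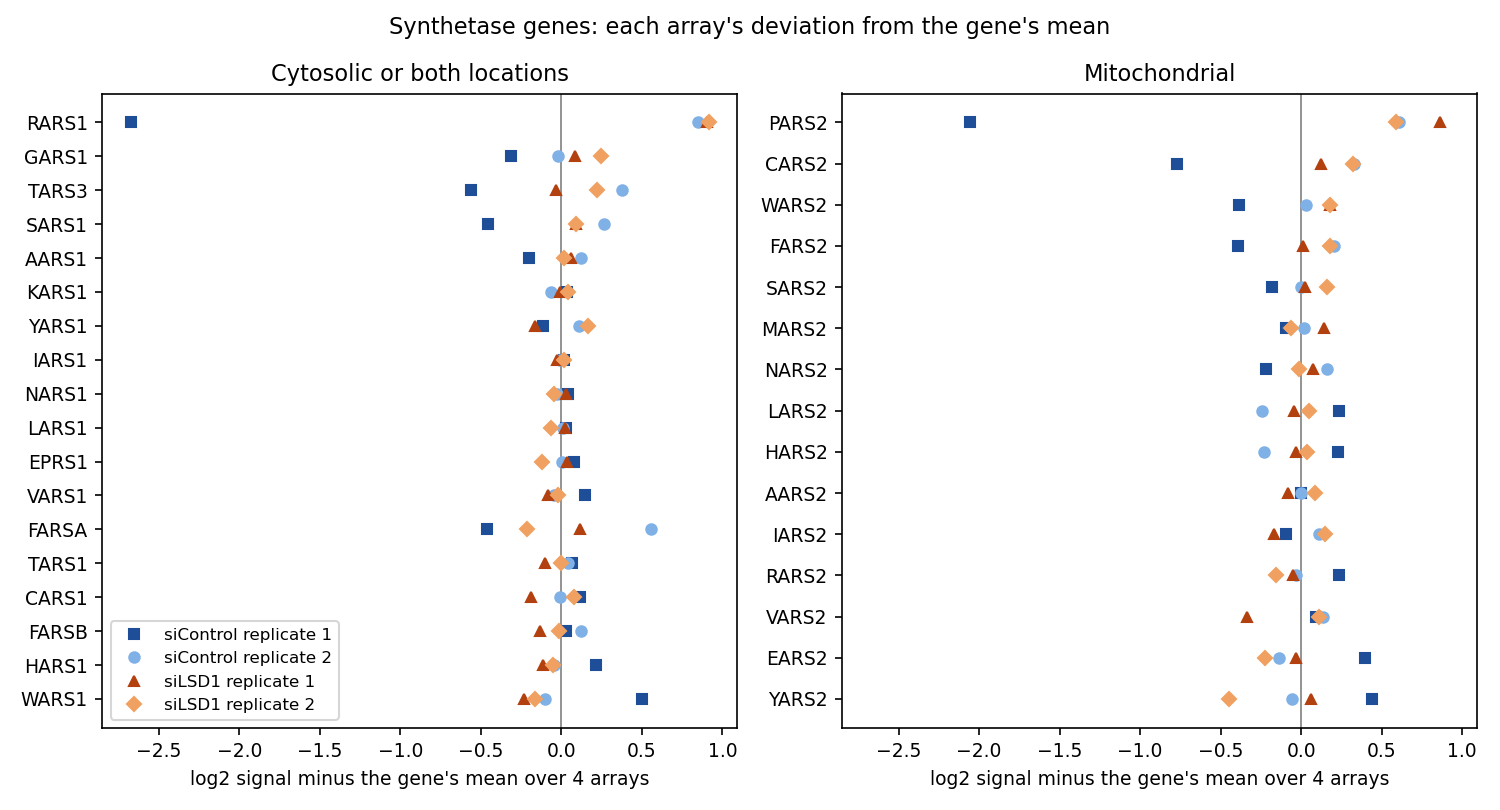
Each array's log2 signal minus the gene's mean over the 4 arrays (x axis) for every synthetase gene (y axis), with 1 symbol per array. The dark blue square of siControl replicate 1 lies far to the left for RARS1 and PARS2 and to the right for WARS1, while IARS1, NARS1 and KARS1 hold all 4 arrays close to 0.

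Free-standing cytosolic enzymes split between slightly higher and slightly lower means. WARS1, the tryptophan enzyme and also a known interferon-induced gene, read 8.85 and 8.25 in siControl and 8.12 and 8.19 in siLSD1 cells. The siLSD1 values lay below both control values, close to that of siControl replicate 2 (log2 fold change -0.39, interval -0.95 to 0.16; limma adjusted p = 0.9996). Without siControl replicate 1 the value was -0.09.

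HARS1, the histidine enzyme, read 9.83 and 9.57 against 9.50 and 9.56 (-0.17), and -0.04 without siControl replicate 1. FARSB, the beta subunit of the phenylalanine enzyme, read 8.88 and 8.97 against 8.72 and 8.84 (-0.15, but 0.05 under median centring). TARS1, for threonine, read 10.18 and 10.15 against 10.01 and 10.11 (-0.11, but 0.03 under median centring). These 3 genes had groups that did not overlap, and each interval included 0.

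FARSA, the alpha subunit that pairs with FARSB, had the widest spread of the other cytosolic genes, with 7.86 and 8.88 in siControl and 8.44 and 8.11 in siLSD1 cells. Its log2 fold change was -0.10 with all arrays, -0.61 without siControl replicate 1 (limma unadjusted p = 0.028, adjusted p = 0.903) and 0.41 without siControl replicate 2. SARS1, the serine enzyme, was at 8.87 and 9.59 against 9.42 and 9.41, and its value of 0.19 turned to -0.17 without siControl replicate 1. TARS3, a paralog of TARS1, was at 6.21 and 7.14 against 6.73 and 6.99, and 0.19 turned to -0.28 by the same step. For all 3 the siLSD1 values lay between the siControl values. NARS1, for asparagine, spanned only 10.91 to 10.999 over the 4 arrays. The remaining cytosolic values were -0.10 for VARS1 (valine), 0.0019 for YARS1 (tyrosine), -0.11 for CARS1 (cysteine) and 0.08 for AARS1 (alanine), with overlapping groups.

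GARS1, which makes the glycine enzyme of both compartments, had the smallest p of the family. It read 10.12 and 10.41 in siControl and 10.52 and 10.68 in siLSD1 cells, with means of 10.26 ± 0.21 and 10.60 ± 0.11 (SD, n = 2). The groups did not overlap. The difference was 1.26-fold (log2 0.33, interval 0.03 to 0.64; limma unadjusted p = 0.036) and did not pass over all genes (adjusted p = 0.9996). It was positive without each of the 4 arrays in turn, from 0.19 to 0.48, and 0.19 without siControl replicate 1, where its interval of -0.10 to 0.47 included 0. GARS1 had a single probe set, so no second reading within the gene was available.

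Mitochondrial enzymes had the larger median SD between control arrays, as given above without matching for signal, and PARS2 stood out among them. PARS2, the mitochondrial proline enzyme, read 3.49 and 6.16 in siControl and 6.41 and 6.14 in siLSD1 cells. Its groups overlapped, the value of siControl replicate 1 was below the filter level, and the log2 fold change of 1.45 (interval -0.21 to 3.11) fell to 0.12 without that array. Without siControl replicate 2 it was 2.78 and PARS2 was called (limma adjusted p = 0.046), in the same fit that called 83 of 11865 genes. PARS2 and RARS1 were the only synthetase genes that read at least 1 log2 unit lower on siControl replicate 1 than on all other arrays, and no synthetase gene did so on another array.

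By their brightest probe sets, the other mitochondrial genes differed by less than 0.5. CARS2, for cysteine, read 6.68 and 7.78 against 7.57 and 7.77, and its 0.44 turned to -0.11 without siControl replicate 1. WARS2, for tryptophan, read 5.76 and 6.17 against 6.325 and 6.32 (0.36, interval -0.29 to 1.01), with groups that did not overlap, and 0.15 without siControl replicate 1. SARS2, for serine, read 6.02 and 6.20 against 6.23 and 6.36 (0.18, or 0.092 without that array), and its groups did not overlap either. RARS2, for arginine, was lower on both siLSD1 arrays, with 9.94 and 9.67 against 9.65 and 9.55 (-0.20, or -0.073 without siControl replicate 1).

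YARS2, for tyrosine, had the lowest fold change of the mitochondrial set (-0.39, interval -1.06 to 0.29), from 7.32 and 6.82 against 6.94 and 6.43, and its groups overlapped. Its value was -0.14 without siControl replicate 1. Negative values with overlapping groups were also found for EARS2 (-0.26, and 0.011 without siControl replicate 1; glutamate), VARS2 (-0.23, valine), IARS2 (-0.02, isoleucine) and AARS2 (-0.00035, alanine). HARS2 (0.0039), LARS2 (0.0063), NARS2 (0.06), MARS2 (0.08) and FARS2 (0.19) were at or above 0, also with overlapping groups. None of the mitochondrial genes had an unadjusted p under 0.05 in limma with all arrays.

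**Figure D3:**
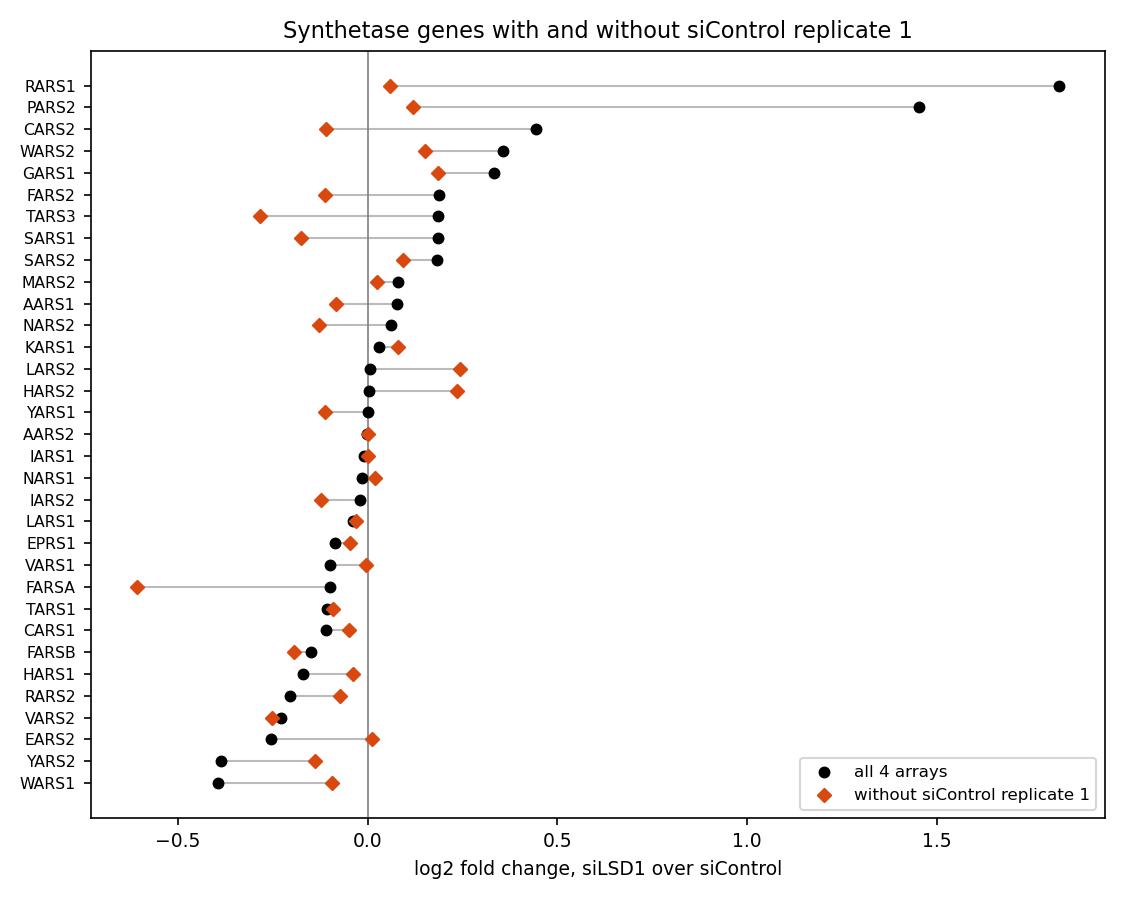
Log2 fold change (x axis) of each synthetase gene (y axis) with all 4 arrays (black circles) and without siControl replicate 1 (orange diamonds), joined by a line. RARS1 moves from 1.82 to 0.06 and PARS2 from 1.45 to 0.12, and FARSA moves the other way, from -0.10 to -0.61.

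HARS1 and HARS2 lie head to head and start 85 bases apart on opposite strands. The 84 bases between their start sites (chr5:140691371-140691454, GRCh38.p14, written 5′ to 3′ along the HARS2 strand) are shown because both enzymes, cytosolic and mitochondrial, start from them. Capitals mark the 2 matches to CCGGAAG or its reverse complement.
HARS1 and HARS2: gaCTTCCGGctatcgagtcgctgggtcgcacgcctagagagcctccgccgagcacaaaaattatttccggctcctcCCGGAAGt
HARS1 had a log2 fold change of -0.17 (interval -0.52 to 0.18) and HARS2 of 0.0039 (interval -0.48 to 0.49), and the difference between them was not tested. On both genes the highest of the 4 readings was that of siControl replicate 1.

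Divergent partners of other synthetases were also without a call. These are genes on the other strand whose promoter window overlapped that of the synthetase. SARS2 (0.18) faces MRPS12, a protein of the mitochondrial ribosome, at -0.30. RARS2 (-0.20) faces ORC3, of the origin recognition complex, at 0.04. EARS2 (-0.26) faces UBFD1 at 0.04, FARS2 (0.19) faces LYRM4 at -0.08 and KARS1 (0.03) faces TERF2IP, a telomere protein, at -0.09. WARS1 (-0.39) faces WDR25, at 1.08 with an interval from -0.44 to 2.60 and a reading below the filter level on siControl replicate 1, and it was at -0.0037 without that array. UBFD1 was at 0.31 and ORC3 at 0.14 without it. With all arrays, every one of these intervals, of synthetases and partners, included 0, and no partner passed in limma (adjusted p = 0.9996 for each).

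Probe sets of the same gene often differed in sign. When every probe set was fitted by itself, 62 of the 69 synthetase probe sets lay above the filter for probe sets, of which 29 were higher and 33 lower (median difference -0.0086, against -0.0043 over all 24655). None passed in limma (0 of 62; smallest adjusted p = 0.994; background 0%). Of the 62, groups did not overlap for 10 higher and 16 lower probe sets, with a background of 16.1% in each direction. The lower share was above that background. Probe sets of the same gene were counted separately, with several lower ones each from CARS2, RARS2 and LARS1. At an unadjusted p under 0.05 there was 1 higher (background 1.85%) and 2 lower (background 1.46%). Of the 18 genes with several probe sets above the filter, 11 had probe sets on both sides of 0. The share over all genes with several probe sets was not computed. Signs turn easily near 0, where the brightest probe set of AARS2 lay (-0.00035).

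EPRS1 had the widest disagreement. Its brightest probe set differed by -0.08, but 200842_s_at read 7.29 and 9.70 in siControl and 10.11 and 9.78 in siLSD1 cells (1.45), and 200841_s_at read 6.92, 7.76, 7.59 and 5.50 (-0.79). The first of these was low on siControl replicate 1 and the other on siLSD1 replicate 2, each by over 1 log2 unit from all other arrays. They were at 0.24 and -1.21 without siControl replicate 1. Over the family, 3 of 62 probe sets (4.84%) were that much lower on siControl replicate 1, those of EPRS1, PARS2 and RARS1, against 3.26% of all 24655.

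RARS2 and CARS1 held the lower probe sets with the smallest p. For RARS2, 1561048_at read 6.93 and 6.67 in siControl and 5.82 and 5.53 in siLSD1 cells, with groups that lay well apart (log2 fold change -1.12, interval -1.80 to -0.45; limma unadjusted p = 0.0054, adjusted p = 0.994). The brightest RARS2 probe set was at -0.20, 232902_s_at at 0.27 and 232901_at at -0.65. Leaving out siControl replicate 1 put 1561048_at at -0.995, 232902_s_at at -0.18 and 232901_at at -0.33. For CARS1, 240983_s_at read 6.32 and 6.94 against 6.09 and 5.48 (-0.85; unadjusted p = 0.046, adjusted p = 0.994 in limma), while the brightest was at -0.11 and 202402_s_at at 0.28 (0.096 without siControl replicate 1). The sources used here do not give which transcripts these probe sets read.

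Other genes also had probe sets apart from the brightest. For CARS2, whose brightest was at 0.44, the other 3 above the filter were all lower with groups that did not overlap: 1557179_s_at at -0.15, 231023_at at -0.77 and 237555_at at -0.94. CARS2 237555_at read 4.72 and 4.46 against 3.12 and 4.19, near the filter level. For LARS1, whose brightest was at -0.04, 222428_s_at was at 0.43 (0.049 without siControl replicate 1), 217810_x_at at -0.30 (-0.45 without it) and 223888_s_at at -0.70 (-1.25 without that array). The second probe set of VARS1, 201796_s_at, was at -0.82 beside -0.10, and -1.40 without siControl replicate 1. It read 4.44 and 5.60 in siControl and 4.57 and 3.82 in siLSD1 cells. LARS1 223888_s_at read 5.85 and 6.96 against 5.83 and 5.59. Both read over 1 log2 unit higher on siControl replicate 2 than on all other arrays, and their values without siControl replicate 1 rest on that reading. Over the family, 2 of 62 probe sets (3.23%) were that much higher there, against 0.247% of all 24655. For AARS2, 230024_at read 5.06 and 5.64 against 5.99 and 6.20 (0.75, or 0.45 without siControl replicate 1), beside -0.00035 for the brightest. For FARSB, 232063_x_at read 4.90 and 5.18 against 5.86 and 5.59 (0.69), but probe sets of this type share probes with other sequences and the value is uncertain. With all arrays, the probe sets of WARS1 lay closest together, at -0.39 and -0.39, and 200628_s_at read 7.92 and 8.31 against 7.86 and 7.60. Without siControl replicate 1 the brightest was at -0.09 and 200628_s_at at -0.58. That array held the higher control reading of the brightest and the lower one of 200628_s_at. SARS1 (0.19 and 0.23), WARS2 (0.36 and 0.19) and LARS2 (0.0063 and 0.08) also had both probe sets on one side of 0. With all arrays the same held for YARS1 (0.0019 and 0.10) and TARS1 (-0.11 and -0.30). Without siControl replicate 1, SARS1 (-0.17 and 0.31) and YARS1 (-0.11 and 0.11) had probe sets on both sides.

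**Figure D4:**
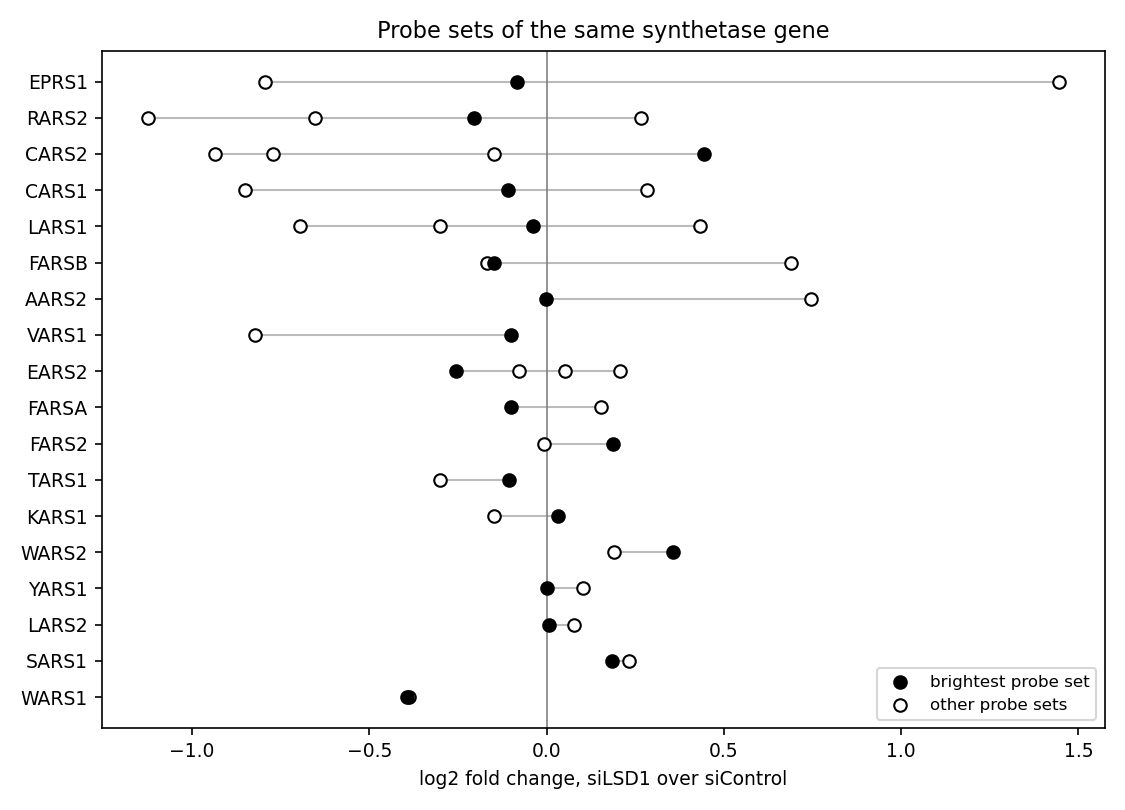
Log2 fold change (x axis) of each probe set above the filter for the 18 synthetase genes that have several (y axis), with the brightest as a filled circle and the others open. The values of EPRS1 run from -0.79 to 1.45 and those of RARS2 from -1.12 to 0.27. The pair of WARS1 coincides at -0.39 with all arrays, but not without siControl replicate 1 (not plotted).

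Genes around the synthetases showed no call either. In the amino acid response, 11 of 29 tested genes had a higher and 18 a lower mean (median -0.05), and 0 passed in limma over all genes (1 lower at an unadjusted p under 0.05, where the background was 1.15%). ATF4 itself read 10.22 and 10.30 in siControl and 10.23 and 10.28 in siLSD1 cells. EIF4EBP1, an inhibitor of cap-dependent translation, was at -0.30, DDIT4, an inhibitor of mTORC1 signalling, at -0.80, CEBPG, a C/EBP partner of ATF4, at 0.41 and VLDLR, a lipoprotein receptor, at -0.35. DDIT4 read 7.63 and 8.76 against 7.74 and 7.05, with overlapping groups. DDIT4 was at -1.37, CEBPG at 0.16 and VLDLR at -0.18 without siControl replicate 1. ASNS, the asparagine synthetase and a classical ATF4 target, read 10.23 and 10.12 against 10.04 and 9.96.

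In tRNA maturation, 10 of 27 genes were higher and 17 lower (median -0.05), of 15 genes of mitochondrial translation 6 and 9 (median -0.05), of 7 cytosolic elongation genes 4 and 3 (median 0.03) and of 8 genes of eIF2 kinase signalling 2 and 6 (median -0.03). None of the genes in these 4 lists had an unadjusted p under 0.05 in limma. The members with the smallest p included the tRNA nucleotidyltransferase TRNT1 (0.50), the formyltransferase MTFMT (-0.39), the modification enzyme TRMU (-0.42) and the cytosolic elongation gene EIF5A (-0.66). EIF5A read 9.95 and 10.46 in siControl and 10.20 and 8.89 in siLSD1 cells, with overlapping groups. Its low value was that of siLSD1 replicate 2, and it was at -0.91 without siControl replicate 1. TRNT1 was at 0.040 and TRMU at -0.24 without siControl replicate 1. The trans-editing enzymes DTD1 and DTD2, which remove wrongly attached amino acids, were at 0.05 and 0.34, and at 0.12 and 0.21 without siControl replicate 1. Under median centring, which raised the median of all genes by 0.17, the amino acid response list had a median of 0.13, below the 0.18 of all genes.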

How the data were processed

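Total RNA of 4 cultures was hybridized to 1 Affymetrix array each. The authors deposited 1 log2 value per probe set and array; the sources used here give no summary method or software, and the scale was read from the values, whose base-2 antilogs had a trimmed mean of 100.0 on each array. Quantile normalization was applied, since array medians differed, at 4.27 and 4.17 in siControl and 4.09 and 4.01 in siLSD1. Both siLSD1 medians lay below both siControl medians, so array scaling and a difference between the groups cannot be told apart. The normalization would remove a difference in overall signal. Probe sets were named through the platform annotation of 2016 where it gave 1 symbol (41091 of 54675). Of 19775 genes, 7910 with a mean below the 40th percentile (4.12) were left out. The comparison used limma 3.58.1 in R 4.3.3 (lmFit, eBayes with a trend, 8.22 degrees of freedom, two-sided, no replicate term, Benjamini-Hochberg over the 11865 genes). The number of arrays limits precision, and an exact permutation test of 2 against 2 arrays cannot go below p = 0.333. P-values rest on the spread between repeated transfections of a single line. No 2 arrays were identical.

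Members, lists and tests were chosen with earlier results of these data known. Per-array values are given for complex scaffolds and for synthetase genes with groups that do not overlap. They are also given for synthetase genes with an absolute log2 fold change of at least 0.5 or an unadjusted p under 0.05. Up to 4 genes of each other list are named besides, and of these only DDIT4 and EIF5A have per-array values. Further genes and probe sets (the other complex members, FARSA, SARS1, TARS3, CARS2, YARS2, ATF4, ASNS and the divergent partners) were chosen after their values were seen. The partners are given mostly by fold change alone. Alternatives were other scalings, filters and probe set rules, eBayes without a trend, the replicate number as a block and leaving out each array. The promoter motifs were chosen after the first fit.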

Additional observations from a re-analysis of the deposited data

How the results depend on the processing

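No synthetase gene was called under the alternatives that kept all 4 arrays, and leaving out 1 array gave 0 to 2 calls, the 2 being RARS1 and PARS2 without siControl replicate 2, where 83 of 11865 genes (0.7%) were called. Log2 fold changes of single genes are given here where the sign turned from that in the report. With the deposited scaling they were AARS2 0.053 and KARS1 -0.054, and the cytosolic median, which counts both locations, was -0.062. Median centring gave FARSB 0.054, CARS1 0.033, TARS1 0.029, FARSA 0.14, VARS1 0.11, EPRS1 0.092, LARS1 0.093, IARS2 0.11, NARS1 0.10, IARS1 0.11 and AARS2 0.23, with medians of 0.11 for the cytosolic set, 0.23 for the mitochondrial set and 0.13 for the amino acid response, against 0.18 for all genes. The mean of all probe sets gave FARSB 0.12, FARSA 0.027, EPRS1 0.19, AARS2 0.37, KARS1 -0.059, TARS3 -0.47, WARS2 -0.51 and CARS2 -0.0032, and -0.091 for the amino acid response. With every probe set by itself the cytosolic median was -0.061. Avoiding probe sets that share probes gave FARSA 0.15 and -0.0020 for the amino acid response. The filters and eBayes without a trend turned no synthetase gene.

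Leaving out each array in turn moved the cytosolic median from -0.048 to -0.0021, the mitochondrial median from -0.032 to 0.083, the amino acid response from -0.077 to -0.041 and KDM1A from -1.39 to -1.25. Genes whose sign turned in this step ran as follows: EARS2 from -0.52 to 0.011, NARS1 from -0.050 to 0.022, IARS1 from -0.029 to 0.011, AARS2 from -0.084 to 0.083, YARS1 from -0.16 to 0.16, NARS2 from -0.13 to 0.25, AARS1 from -0.082 to 0.24, SARS1 from -0.17 to 0.55, TARS3 from -0.28 to 0.66, FARS2 from -0.11 to 0.49, CARS2 from -0.11 to 0.99, FARSA from -0.61 to 0.41, IARS2 from -0.18 to 0.14, HARS2 from -0.23 to 0.24, LARS2 from -0.23 to 0.24, KARS1 from -0.017 to 0.080, CARS1 from -0.24 to 0.021, MARS2 from -0.026 to 0.18 and LARS1 from -0.082 to 0.0055. Without siControl replicate 1, 13 synthetase genes were higher, in place of 16. With 1 array left out, the count whose groups did not overlap ran from 18 to 27 of 33, beside 56.7% to 76.9% of all genes, since fewer arrays separate more easily. Without siControl replicate 1 it was 20, beside 68.4% of all genes. The count with an interval inside 2-fold ran from 21 to 32.

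With the replicate number as a block, 0 synthetase genes and 13 of all genes were called, and KDM1A passed (-1.32, adjusted p = 0.019 in limma). Without siControl replicate 2 KDM1A passed as well (-1.32, adjusted p = 0.047 in limma). Same-numbered arrays shared little: their deviations from the group means correlated at 0.052 over 11865 genes, so the number was not taken as a pairing. The cause of the other moves was not tested. With 2 arrays per group the median half-width of a synthetase gene's 95% interval was 0.48 on the log2 scale. Differences well below that were not detectable for most of them, even before adjustment over all genes. After adjustment, KDM1A at -1.32 was itself not called in the main fit (adjusted p = 0.39 in limma). The lack of a call therefore says little about differences of that size or smaller.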
